A study of Homo sapiens with 6 samples.

Results

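The genes of glycolysis and the pentose phosphate pathway were followed in ZR-75-1 cells, an oestrogen receptor-positive luminal breast cancer line, after CDK4/6 inhibition. The group holds 35 of the 60656 genes in the count table, chosen as a list of symbols and matched by Ensembl identifier: glucose and lactate transporters, the enzymes of glycolysis, lactate dehydrogenases, pyruvate dehydrogenase kinases and pentose phosphate enzymes. Each symbol matched 1 identifier.

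The series asks how abemaciclib, an inhibitor of the kinases CDK4 and CDK6, changes the transcriptome of these cells and of RB1-knockout derivatives. The libraries used here were from parental cells only, and the knockout libraries were not analysed here. In the control group, 3 cultures received DMSO, the solvent of the drug, and in the treated group 3 cultures received abemaciclib at 500 nM. Exposure lasted 4 days in both groups, in the same serum-containing medium, and the study's methods describe the cultures as independent biological replicates of this single line.

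Glycolysis splits glucose into pyruvate. Its preparatory steps spend ATP to trap and cleave the sugar, and its payoff steps return ATP and NADH. Lactate dehydrogenase turns pyruvate into lactate, which leaves the cell with protons through monocarboxylate transporters, whereas pyruvate dehydrogenase, which the PDK kinases switch off, sends it to the mitochondrion. The pentose phosphate pathway draws glucose 6-phosphate away to make NADPH and ribose phosphate for nucleotides. Many of these genes exist as isoenzyme pairs or families, and tumour cells are known for a high glycolytic flux.

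Library depth was 3317860 to 4013156 counts. Levels are given in CPM, the counts of a gene per unit of library size after TMM scaling, and 3 counts in a library equalled 0.74 to 0.909 CPM. The libraries were made by 3′ end counting, in which transcript length does not set the number of reads. Levels are still hard to compare between genes where annotated genes overlap at the 3′ end or pseudogenes share sequence, as for ALDOA, LDHB and PGAM1. The 6 luminal markers checked (ESR1, GATA3, FOXA1, KRT8, KRT18 and EPCAM) summed to 3630 to 3880 CPM with DMSO and to 3660 to 4190 CPM with abemaciclib, with GATA3 the most abundant. Of these, ESR1, the oestrogen receptor, rose (log2 fold change 0.83, SE 0.10, adjusted P = 2.92e-07) and KRT18, a luminal keratin, fell (−0.34, SE 0.09, adjusted P = 0.00515). The 10 markers of basal, stromal, endothelial and immune cells summed to 11.6 to 16.1 CPM and 10.1 to 15.9 CPM, of which nearly all was COL1A1, and 7 of them were at 0 in every library. MKI67, a marker of cycling cells, stood at 527, 494 and 557 CPM with DMSO and at 4.24, 3.21 and 7.57 CPM with abemaciclib. It fell by 6.71 on the log2 scale (SE 0.17, adjusted P = 4.61e-22, edgeR quasi-likelihood test). The changes below moved with the same groups as MKI67, and the part of the fall in MKI67 in them was not tested.

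The genes moved in both directions. Of the 35 genes, 30 had enough counts to be tested, and 7 of these rose and 7 fell with abemaciclib at a Benjamini–Hochberg adjusted P under 0.05 (23.3% in each direction). Over all 10863 genes tested, 12.5% rose and 13.3% fell. The median log2 fold change was −0.06 over the 30 genes and −0.002 over all genes tested. Those that rose were SLC2A1, HK1, GPI, PFKM, PFKFB3, PFKFB4 and PKM, and those that fell were SLC2A10, SLC16A3, TPI1, ENO1, ENO2, LDHB and TKT. The other 16 had log2 fold changes between −0.49 and 0.30. Because whole cultures were sequenced, fewer cells with a transcript and less of it per cell cannot be told apart.

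Among the calls, 7 were also made under every alternative setting: SLC2A1, HK1 and PKM higher, and SLC2A10, TPI1, ENO1 and ENO2 lower. LDHB was called under every alternative in which it was tested, but not tested where at least 10 counts were required in every library, where SLC16A3 and PFKFB4 were not tested either. The count of genes that rose was 3 without DMSO replicate 2 or DMSO replicate 3, 4 without abemaciclib replicate 1 or replicate 2, and 4 with DESeq2 or with the replicate number as a block. SLC16A3 and LDHB passed the filter on low counts only through the DMSO libraries and PFKFB4 only through the abemaciclib libraries, so these 3 were tested because they are high in 1 group.

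**Figure D1:**
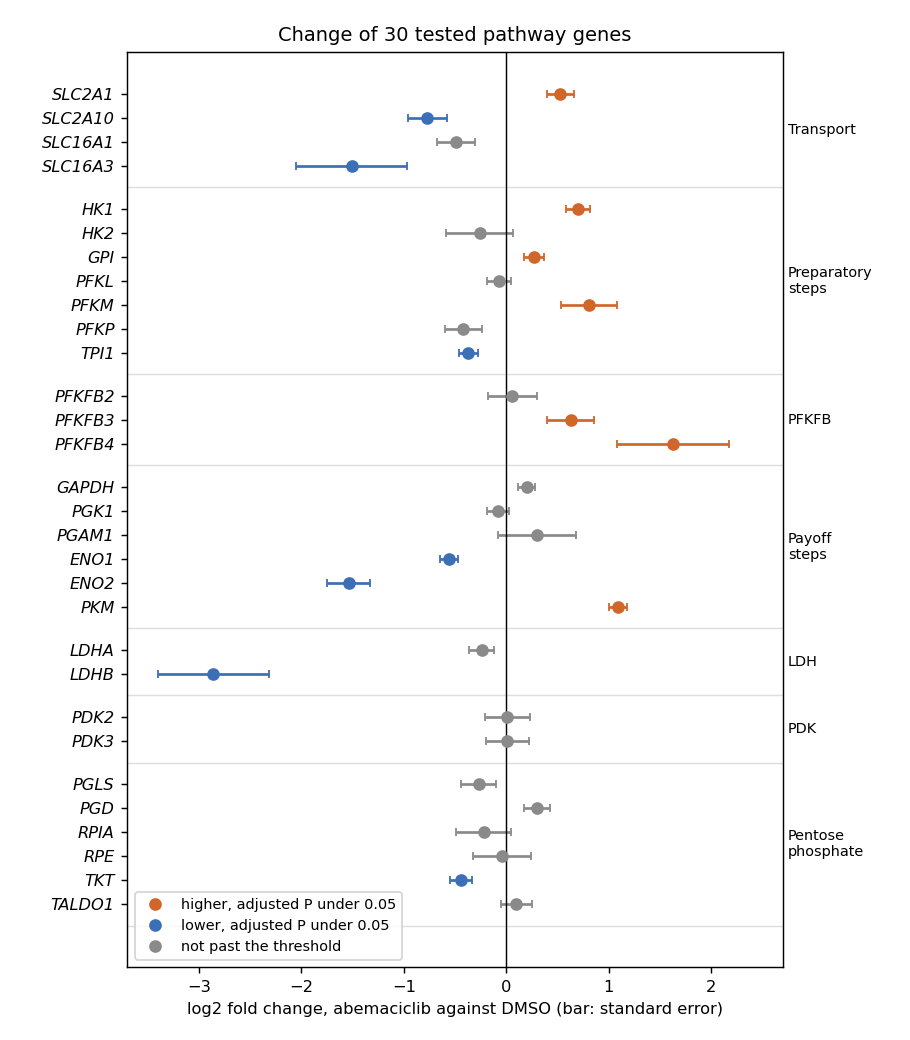
Log2 fold change of each of the 30 tested genes with abemaciclib against DMSO (x axis; bar, standard error), ordered by step of the pathway. Orange points passed the threshold upwards (7 genes) and blue points downwards (7 genes), and opposite directions occur side by side within transport, preparatory steps and payoff steps.

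With DMSO, GAPDH was the most abundant of the group, followed in mean CPM by ENO1, TPI1, GPI and PKM. With abemaciclib the order of the mean levels was GAPDH, PKM, GPI, ENO1 and TPI1. The libraries of GPI and PKM overlapped with DMSO, and those of GPI and ENO1 overlapped with abemaciclib. All 35 genes together took 0.886%, 0.9% and 0.961% of the counts of the DMSO libraries and 1.07%, 1.03% and 0.93% of those of the abemaciclib libraries. The ranges overlapped. Without GAPDH the shares were 0.352% to 0.361% and 0.356% to 0.384%, which also overlapped.

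Stretches of promoter are shown because several of the genes are textbook targets of transcription factors that read short DNA words. RefSeq windows (GRCh38.p14) from 250 bases before to 50 bases after the start were found for 33 of the 35 genes, all but SLC16A1 and PFKFB2. Both strands were searched for CACGTG (the E-box bound by MYC and its relatives, which contains ACGTG), for ACGTG and GCGTG (the core bound by hypoxia-inducible factors) and for TTTGGCGC and TTTCCCGC (words bound by E2F factors). Printed below, 5′ to 3′ on the strand of the gene with the matched word in capitals and 10 bases on each side, are all CACGTG matches of tested genes, the ACGTG matches of genes past the threshold, and 3 of the GCGTG matches of genes past the threshold. CACGC is GCGTG on the other strand.
LDHA distal: actcccagcgCACGTGgagcagtctg
LDHA proximal: gcccgactcaCACGTGggttcccgca
GAPDH: tctgcggggtCACGTGtcgcagagga
ENO2: ccgcgctcgtACGTGcgcctccgcc
SLC2A10: tggctggccgACGTGgcgttggcgg
GPI: actgcctgtaACGTGgaaggtgttc
ENO1: agctgaggggGCGTGccccggaggc
PFKFB4: agttgggcatGCGTGgtcggaggcc
PFKFB3: cggcccggccCACGCcccggcttcc

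Counted from the RefSeq start, with −1 the base before it, the LDHA words begin at −185 and −87, within chr11:18394368-18394393 and chr11:18394466-18394491. That of GAPDH begins at −81, within chr12:6535173-6535198, and that of ENO2 at −118, within chr12:6914452-6914476. The SLC2A10 and GPI words lie within chr20:46709566-46709590 and chr19:34364820-34364844. These genes are on the plus strand, as is PFKFB3, whose word lies within chr10:6144743-6144767. The words of ENO1 (chr1:8878744-8878768) and PFKFB4 (chr3:48556955-48556979) are on the minus strand. For all printed genes but SLC2A10 and PFKFB3, the annotation also places exons of other transcripts in the 250 bases before the start.

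The words were found in genes that passed the threshold and in genes that did not. CACGTG was in 3 of the 33 windows (9.09%; LDHA, GAPDH and ALDOC) and in 7.43% of all 27305 windows. It was in 0 of the 14 windows of genes past the threshold and in 2 of the 14 of tested genes not past it. ACGTG was in 11 windows (33.3%, against 21.6% of all) and GCGTG in 14 (42.4%, against 36.3%). At least 1 of these was in 9 of the 14 windows of genes past the threshold and in 8 of the 14 others. TTTGGCGC was in none of the 33 (0.659% of all) and TTTCCCGC only in that of PFKM (1.66% of all). These are matches of letters, and binding was not measured here.

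Of the glucose carriers in the group, 2 were tested, and they went in opposite directions. Further glucose carriers are among the neighbouring genes outside the group, of which SLC2A8 is given below. SLC2A1, which encodes GLUT1, the main basal glucose carrier of many cells (chromosome 1, 42925353 to 42958893, minus strand, GRCh38), stood at 70.2, 78.4 and 60.3 CPM with DMSO and at 107, 90.3 and 104 CPM with abemaciclib. All 3 treated libraries were above all controls, and the gene rose by 0.53 on the log2 scale (SE 0.13, adjusted P = 0.00337). A gene on the opposite strand at its 3′ end in the later annotation is not among those counted. SLC2A10, which encodes GLUT10, a carrier of glucose and dehydroascorbate (chromosome 20, 46709649 to 46736347, plus strand), stood at 36.6, 39.2 and 37.3 CPM with DMSO and at 19.97, 20.5 and 25.9 CPM with abemaciclib. The groups did not overlap and it fell by 0.77 on the log2 scale (SE 0.19, adjusted P = 0.00298). SLC2A12, encoding GLUT12, had 0, 3 and 1 counts with DMSO and 0, 10 and 0 with abemaciclib and was not tested.

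Of the lactate carriers, SLC16A3 fell and SLC16A1 did not pass the threshold. SLC16A3 encodes MCT4, the carrier typical of cells that export lactate, and had 17, 28 and 13 counts with DMSO and 8, 11 and 3 with abemaciclib. The groups did not overlap, and the log2 fold change was −1.51 (SE 0.54, adjusted P = 0.0379). SLC16A3 was tested only through its DMSO libraries, so neither the separation nor the adjusted P is independent of the filter. CSNK1D, on the opposite strand at its 3′ end, had 2683 counts over the 6 libraries against 80 for SLC16A3, and whether strand was used in counting is not given in the sources used here. The SLC16A3 call was not made with DESeq2 (adjusted P = 0.101), nor without DMSO replicate 1 or 2 (adjusted P = 0.0706 and 0.243) or abemaciclib replicate 1, 2 or 3 (adjusted P = 0.0632, 0.0521 and 0.165). SLC16A1, encoding MCT1, stood at 43.2, 41.0 and 29.7 CPM with DMSO and at 23.6, 31.3 and 25.9 CPM with abemaciclib. The groups overlapped at DMSO replicate 3, and the log2 fold change was −0.49 (SE 0.19, adjusted P = 0.06). It passed the threshold without DMSO replicate 3 (−0.64, adjusted P = 0.0227) and without abemaciclib replicate 2 (−0.61, adjusted P = 0.0484).

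Of the preparatory enzymes, HK1, GPI and PFKM rose and TPI1 fell. HK1, the ubiquitous hexokinase that traps glucose as its phosphate (chromosome 10, 69269984 to 69401884, plus strand), stood at 92.8, 77.2 and 98.7 CPM with DMSO and at 153, 143 and 142 CPM with abemaciclib. The groups were far apart, and HK1 rose by 0.70 on the log2 scale (SE 0.12, adjusted P = 3.63e-05). HK2, the inducible hexokinase of many tumours, was low at 9.57, 8.02 and 12.1 CPM with DMSO and 6.66, 10.1 and 7.84 CPM with abemaciclib, with overlapping groups and a log2 fold change of −0.26 (SE 0.33, adjusted P = 0.625). GPI, the glucose phosphate isomerase, stood at 464, 486 and 512 CPM with DMSO and at 627, 625 and 512 CPM with abemaciclib. The third treated library was level with the highest control to within 1 CPM. The log2 fold change of GPI was 0.27 (SE 0.10, adjusted P = 0.0373), and the call was lost with library totals (adjusted P = 0.0541), with the replicate block (adjusted P = 0.0972), and without any DMSO replicate or abemaciclib replicate 1 or 2 (adjusted P from 0.0539 to 0.166).

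Phosphofructokinase, the committing step, differed by isoenzyme. PFKM, the muscle type, was the least abundant with 12.5, 8.61 and 9.69 CPM with DMSO and 18.2, 21.5 and 14.3 CPM with abemaciclib, without overlap. It rose by 0.81 on the log2 scale (SE 0.27, adjusted P = 0.0273), but not with DESeq2 (adjusted P = 0.0756) nor without DMSO replicate 2 (0.69, adjusted P = 0.116), DMSO replicate 3 (0.77, adjusted P = 0.0737), abemaciclib replicate 1 (0.81, adjusted P = 0.0563) or abemaciclib replicate 2 (0.66, adjusted P = 0.138). PFKL, the liver type and the most abundant, stood at 100, 100 and 111 CPM with DMSO and at 108, 102 and 86.7 CPM with abemaciclib (log2 fold change −0.07, SE 0.12, adjusted P = 0.733). PFKP, the platelet type, stood at 40.3, 54.4 and 52.7 CPM with DMSO and at 44.8, 38.2 and 27.3 CPM with abemaciclib. The PFKP groups overlapped and the log2 fold change was −0.42 (SE 0.18, adjusted P = 0.0896), past the threshold, among the alternatives run, only without abemaciclib replicate 1 (−0.58, adjusted P = 0.0331). The 3 together summed to 163 ± 10.1 CPM with DMSO and 154 ± 22.3 CPM with abemaciclib (SD, n = 3), within the spread of the replicates.

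TPI1, the triose phosphate isomerase (chromosome 12, 6867119 to 6870948, plus strand), stood at 543, 529 and 517 CPM with DMSO and at 426, 410 and 397 CPM with abemaciclib. The groups were narrow and did not overlap, and TPI1 fell by 0.37 on the log2 scale (SE 0.09, adjusted P = 0.00301). SPSB2, on the opposite strand at its 3′ end, had 693 counts over the 6 libraries against 9896 for TPI1. The aldolases, which cleave the sugar, could not be tested. ALDOA had 0, 0 and 0 counts with DMSO and 2, 0 and 1 with abemaciclib, and a longer annotated gene on the same strand covers its 3′ end and had 0 counts in all libraries, so that ALDOA is only listed at or near 0. ALDOC, the brain type, had 0 counts in each DMSO library and 4, 6 and 11 with abemaciclib (1.21, 1.48 and 2.97 CPM). The treated mean of 1.89 CPM was 2.12 times the limit of 0.89 CPM that 3 counts per DMSO library set. This ratio carries no error for the low treated counts and is not a lower bound. A gene on the opposite strand at the 3′ end of ALDOC had 0 counts in all libraries.

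The PFKFB enzymes make and remove the sugar phosphate that activates phosphofructokinase, and 2 of the 3 rose. PFKFB3, the form with the strongest kinase side, stood at 23.5, 22.3 and 12.7 CPM with DMSO and at 26.3, 28.6 and 35.7 CPM with abemaciclib. The groups lay close but apart, and PFKFB3 rose by 0.63 on the log2 scale (SE 0.23, adjusted P = 0.0391). Its call was lost with DESeq2 (adjusted P = 0.0984), with the replicate block (adjusted P = 0.0617) and without DMSO replicate 2 (0.73, adjusted P = 0.055), DMSO replicate 3 (0.40, adjusted P = 0.217), abemaciclib replicate 2 (0.67, adjusted P = 0.0655) or abemaciclib replicate 3 (0.50, adjusted P = 0.13). PFKFB4 had 6, 5 and 4 counts with DMSO and 19, 15 and 17 with abemaciclib, without overlap, and rose by 1.63 on the log2 scale (SE 0.55, adjusted P = 0.0286). At these counts the PFKFB4 call was lost with DESeq2 (adjusted P = 0.0879), with no filter (adjusted P = 0.0663), with the replicate block (adjusted P = 0.0526) and without any 1 library but abemaciclib replicate 2 (adjusted P from 0.0703 to 0.115). PFKFB4 was tested only through its abemaciclib libraries, so neither the separation nor the adjusted P is independent of the filter. PFKFB2 stood at 14.5 to 29.6 CPM with DMSO and at 17.8 to 26.6 CPM with abemaciclib (log2 fold change 0.06, adjusted P = 0.901).

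**Figure D2:**
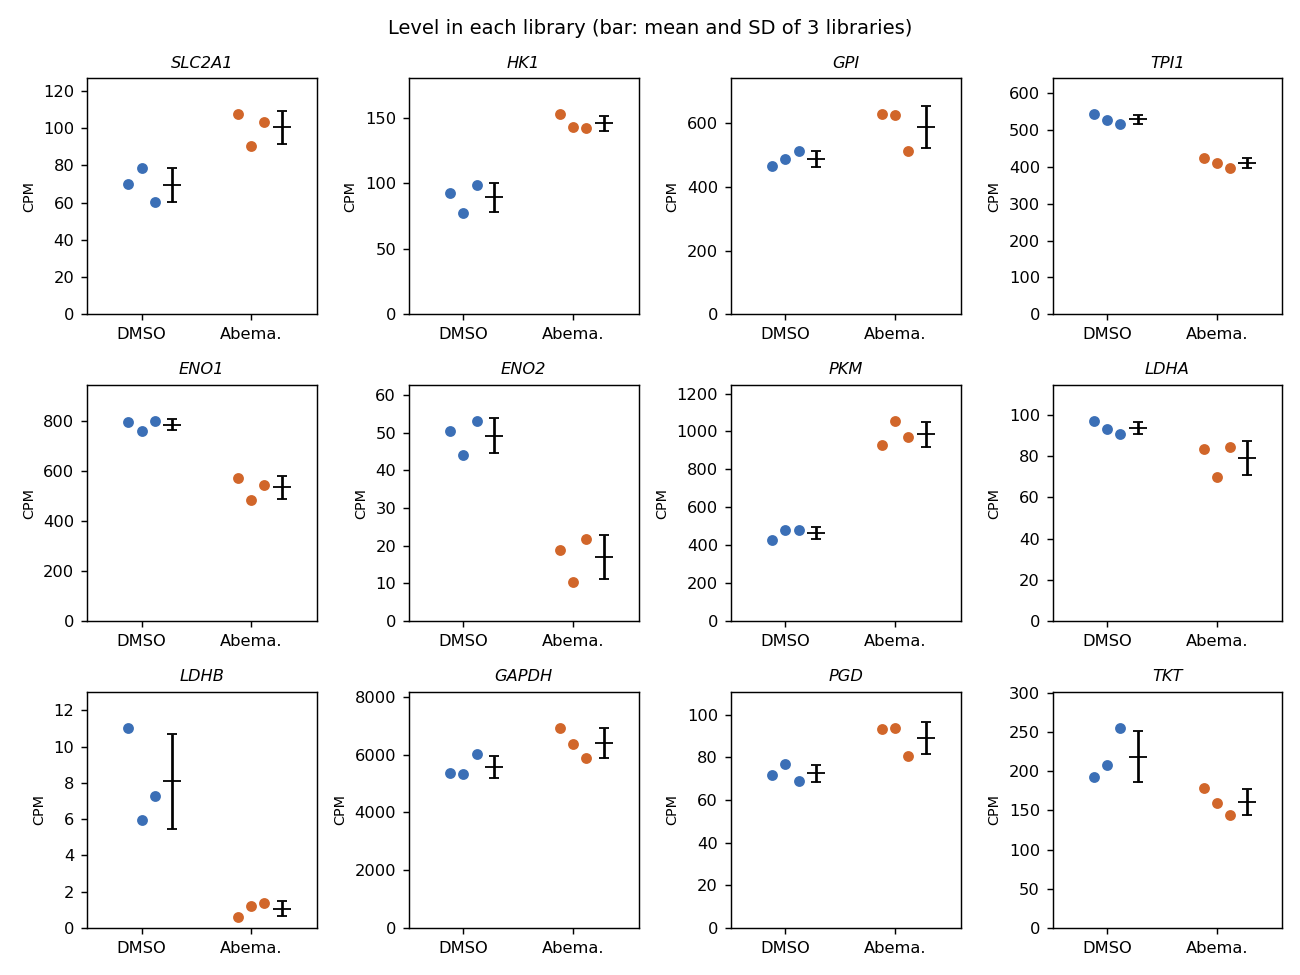
CPM of 12 of the genes in each library (points; y axes start at 0), with the mean and SD of the 3 libraries per group as a bar. PKM, HK1 and SLC2A1 are higher and ENO1, ENO2, TPI1 and LDHB lower in every abemaciclib library than in any DMSO library, whereas the groups overlap for GAPDH.

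The payoff steps held the clearest rise and the clearest falls, at neighbouring enzymes. PKM, the pyruvate kinase that makes pyruvate and ATP in the last step (chromosome 15, 72199029 to 72231819, minus strand), stood at 427, 483 and 482 CPM with DMSO and at 927, 1054 and 973 CPM with abemaciclib. Every treated library was far above every control, and PKM rose 2.12-fold (log2 fold change 1.09, SE 0.09, adjusted P = 2.5e-10). Its splice forms share the 3′ end and are not told apart in counts per gene.

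Enolase, the step just before, moved the other way. ENO1, the enolase of most tissues (chromosome 1, 8861000 to 8879190, minus strand), stood at 798, 761 and 800 CPM with DMSO and at 574, 486 and 545 CPM with abemaciclib. The groups were well separated and it fell by 0.56 on the log2 scale (SE 0.09, adjusted P = 2.97e-05). ENO2, the enolase best known as a neuronal and neuroendocrine marker (chromosome 12, 6913745 to 6923698, plus strand), stood at 50.5, 43.96 and 53.0 CPM with DMSO and at 18.8, 10.4 and 21.9 CPM with abemaciclib. ENO2 fell by 1.54 on the log2 scale (SE 0.21, adjusted P = 2.41e-06), the groups again apart. The sum of both was 835 ± 26.5 CPM with DMSO and 552 ± 49.8 CPM with abemaciclib (SD, n = 3), a ratio of 0.661. With DMSO, ENO1 was above PKM in every library, and with abemaciclib PKM was above ENO1 in every library.

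The remaining payoff enzymes did not pass the threshold. GAPDH, often used as a reference gene, stood at 5377, 5337 and 6033 CPM with DMSO and at 6928, 6384 and 5906 CPM with abemaciclib. The groups overlapped and the log2 fold change was 0.20 (SE 0.08, adjusted P = 0.0805), past the threshold without abemaciclib replicate 3 (0.26, adjusted P = 0.00177). The GAPDH pseudogenes, 65 in the annotation, held 43 counts against 127059 for the gene. PGK1, the first ATP-making step, stood at 190 to 223 CPM with DMSO and 178 to 226 CPM with abemaciclib (log2 fold change −0.08, adjusted P = 0.635). PGAM1, the mutase between PGK1 and enolase, had only 5.80 to 8.18 CPM and 4.69 to 12.1 CPM (log2 fold change 0.30, SE 0.38, adjusted P = 0.622). PGAM1 has 13 pseudogenes in the annotation, and how reads that match several places were counted is not given in the sources used here.

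For lactate dehydrogenase, LDHB fell while LDHA did not pass the threshold. LDHB, the form that prefers to turn lactate back into pyruvate (chromosome 12, 21635342 to 21757857, minus strand), had 38, 20 and 24 counts with DMSO and 2, 5 and 5 with abemaciclib. The groups did not overlap, and LDHB fell by 2.86 on the log2 scale (SE 0.54, adjusted P = 0.000178). LDHB was tested only through its DMSO libraries, so neither the separation nor the adjusted P is independent of the filter. The counted level was low in both groups, at 8.08 ± 2.64 CPM and 1.06 ± 0.401 CPM (SD, n = 3). An annotated gene on the same strand covers the 3′ end of LDHB, as for ALDOA, and had 0 counts. How reads in the overlap were counted is not given in the sources used here, and the part of the overlap in the low level was not tested. LDHA, the form that prefers to make lactate, stood at 96.9, 93.0 and 90.9 CPM with DMSO and at 83.2, 69.8 and 84.6 CPM with abemaciclib. Every treated library of LDHA was below every control, but the log2 fold change of −0.24 did not pass the threshold (SE 0.12, adjusted P = 0.162).

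The kinases of pyruvate dehydrogenase showed no call. PDK2 stood at 23.8 to 38.0 CPM with DMSO and 20.8 to 37.8 CPM with abemaciclib (log2 fold change 0.01, SE 0.22, adjusted P = 0.972). PDK3 stood at 22.6 to 28.5 CPM and 19.4 to 34.1 CPM (log2 fold change 0.01, SE 0.21, adjusted P = 0.987). PDK1 had 5 to 8 counts with DMSO and 7 to 15 with abemaciclib, and PDK4 had 0 and 0 to 3, so neither was tested. The 4 kinases summed to 57.5 ± 5.09 CPM and 59.1 ± 0.688 CPM (SD, n = 3), a ratio of 1.03.

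In the pentose phosphate pathway, TKT fell and the other 5 enzymes did not pass the threshold. TKT, the transketolase that links pentoses back to glycolysis (chromosome 3, 53224712 to 53256052, minus strand), stood at 192, 209 and 255 CPM with DMSO and at 178, 160 and 145 CPM with abemaciclib. The groups did not overlap and TKT fell by 0.44 on the log2 scale (SE 0.11, adjusted P = 0.00463), although without DMSO replicate 3 the value was −0.32 (adjusted P = 0.0658). PGD, the phosphogluconate dehydrogenase that makes NADPH and pentose phosphate, stood at 71.6, 76.6 and 69.1 CPM with DMSO and at 93.2, 93.8 and 80.5 CPM with abemaciclib. All treated PGD libraries were above all controls, but the log2 fold change of 0.30 (SE 0.13, adjusted P = 0.0838) passed, among the alternatives run, only without abemaciclib replicate 3 (0.37, adjusted P = 0.034). For TALDO1, the transaldolase, the log2 fold change was 0.10 (SE 0.15, adjusted P = 0.693). For PGLS, the lactonase, it was −0.27 (SE 0.17, adjusted P = 0.275), and the pentose isomerase RPIA and epimerase RPE gave −0.22 and −0.04 (adjusted P = 0.613 and 0.939). KANSL1L, on the opposite strand at the 3′ end of RPE, had 75 counts over the 6 libraries against 307 for RPE.

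Within isoenzyme sets, the share of 1 member does not depend on library scaling. HK2 held 9.35%, 9.41% and 10.9% of the hexokinase counts with DMSO and 4.17%, 6.59% and 5.23% with abemaciclib. ENO2 held 5.95%, 5.46% and 6.22% of the enolase counts with DMSO and 3.16%, 2.09% and 3.86% with abemaciclib. LDHB held 10.2%, 6.01% and 7.41% of the lactate dehydrogenase counts and 0.722%, 1.74% and 1.57%. The treated LDHB shares rest on 2, 5 and 5 counts, and how reads in the overlap at its 3′ end were counted is not given. For HK2, ENO2 and LDHB every treated library was below every control, so that these minor forms took a smaller share. PFKP and SLC16A3, the minor lactate carrier, also took a smaller share in every treated library, as given below. The minor forms PFKM and PDK1 did not. The mean share of PFKM was 6.35% with DMSO and 11.7% with abemaciclib. That of PDK1 was 3.59% and 4.8%, with overlapping groups. HK2 itself had a log2 fold change of −0.26 (SE 0.33) and HK1 one of 0.70 (SE 0.12), so the lower HK2 share went mainly with the rise of HK1.

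The phosphofructokinase mix moved towards PFKM, which held 8.16%, 5.28% and 5.6% with DMSO and 10.6%, 13.3% and 11.2% with abemaciclib. PFKP held 26.4%, 33.3% and 30.5% and then 26.2%, 23.7% and 21.3%. The share of PFKL was 63.6% ± 2.06 and 64.6% ± 2.59 (SD, n = 3). SLC16A1 held 89.8%, 83.1% and 88.3% of the counts of the 2 lactate carriers with DMSO and 90.7%, 92.0% and 97.0% with abemaciclib. The groups did not overlap for 6 of the 9 shares computed, each with P = 0.1 in a two-sided exact permutation test, the smallest that 3 against 3 libraries allow, and 0.15 after Benjamini–Hochberg adjustment over the 9. None could therefore reach 0.05. The shares of PFKL, PFKM and PFKP are parts of the same sum, so they are not separate results. Those of LDHB and SLC16A1 rest on the low counts of LDHB and SLC16A3. Both of these genes passed the filter on low counts only through the DMSO libraries. How often shares separate in other sets of genes was not computed. PFKFB3, PDK1 and PFKL gave P of 0.2, 0.3 and 0.7 by the same exact test.

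**Figure D3:**
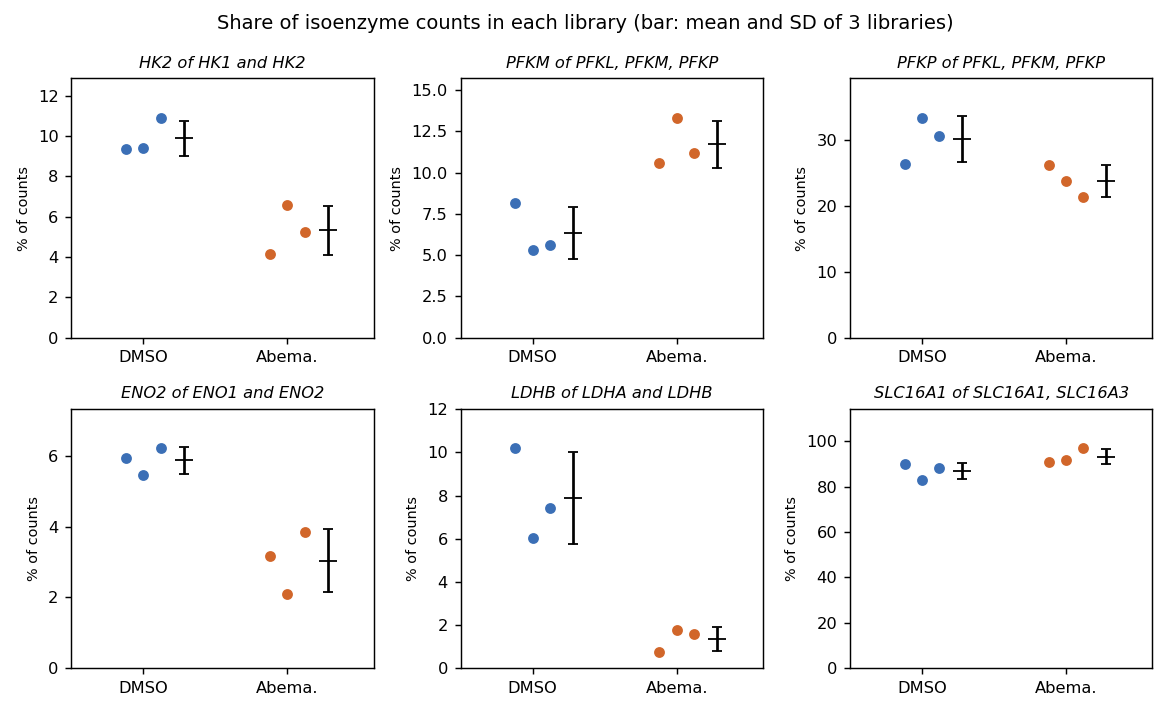
Percentage of the counts of an isoenzyme set held by 1 member in each library (points; y axes start at 0), with mean and SD of 3 libraries per group. The shares of HK2, PFKP, ENO2 and LDHB are lower, and those of PFKM and SLC16A1 higher, in every abemaciclib library than in any DMSO library.

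Of 46 neighbouring genes of the pathway that are not in the group (further carriers, isoenzymes and regulators), 25 were tested and 15 were at 0 in every library. Of the 25, 6 rose (24.0%) and 2 fell (8.0%), against 12.5% and 13.3% over all genes tested. The median log2 fold change of the 25 was 0.31, against −0.002 over all genes tested. PDP2, a phosphatase that reverses the PDK kinases, rose by 0.86 on the log2 scale from 28.2 to 31.0 CPM to 49.99 to 59.3 CPM (SE 0.16, adjusted P = 0.000187). DERA, which breaks down deoxyribose phosphate, fell by 1.13 on the log2 scale (SE 0.24, adjusted P = 0.000841), with 25.4 to 39.2 CPM and then 10.5 to 22.7 CPM. Both calls were made under every alternative.

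The further neighbours named here were less firm. PRPS1, which makes the activated ribose for nucleotides, rose by 0.62 on the log2 scale (SE 0.17, adjusted P = 0.00651) and had an adjusted P of 0.0505 without DMSO replicate 3. PRPS2, its paralogue, fell by 0.76 on the log2 scale (SE 0.28, adjusted P = 0.0482), with 12.4 to 29.0 CPM and then 11.1 to 12.1 CPM. SLC2A8, an intracellular glucose carrier, had 0.53 (adjusted P = 0.0431), TIGAR, a phosphatase that opposes phosphofructokinase, had 0.80 (adjusted P = 0.045), and HIF1A, the oxygen-sensing transcription factor subunit, had 0.35 (adjusted P = 0.029). The calls of PRPS2, SLC2A8, TIGAR and HIF1A were each lost with DESeq2, with the replicate block and without DMSO replicate 2 (adjusted P over the alternatives up to 0.472, 0.333, 0.167 and 0.179). Leaving out singly 4 further libraries for PRPS2 (all but DMSO replicate 3), 3 for SLC2A8 (DMSO replicates 1 and 3, abemaciclib replicate 2), 3 for TIGAR (DMSO replicate 3, abemaciclib replicates 1 and 3) and 2 for HIF1A (DMSO replicate 1, abemaciclib replicate 2) also ended the call. The count of neighbours that rose was 3 without DMSO replicate 2, and the count that fell was 1 without DMSO replicate 1 or 2 or abemaciclib replicate 2 or 3.

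**Figure D4:**
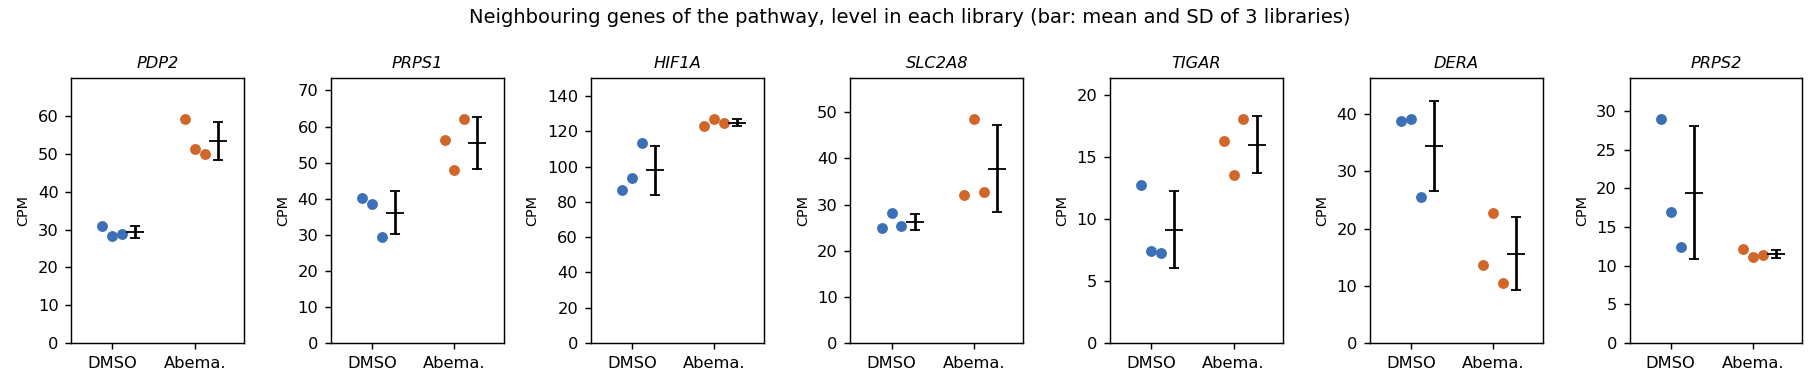
CPM in each library (points; y axes start at 0) of 7 of the neighbouring genes past the threshold, with mean and SD of 3 libraries per group. PDP2 is higher and DERA lower in every abemaciclib library, while PRPS2 rests on a single high DMSO library (29.0 CPM against 12.4 and 16.9 CPM in the others).

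**Figure D5:**
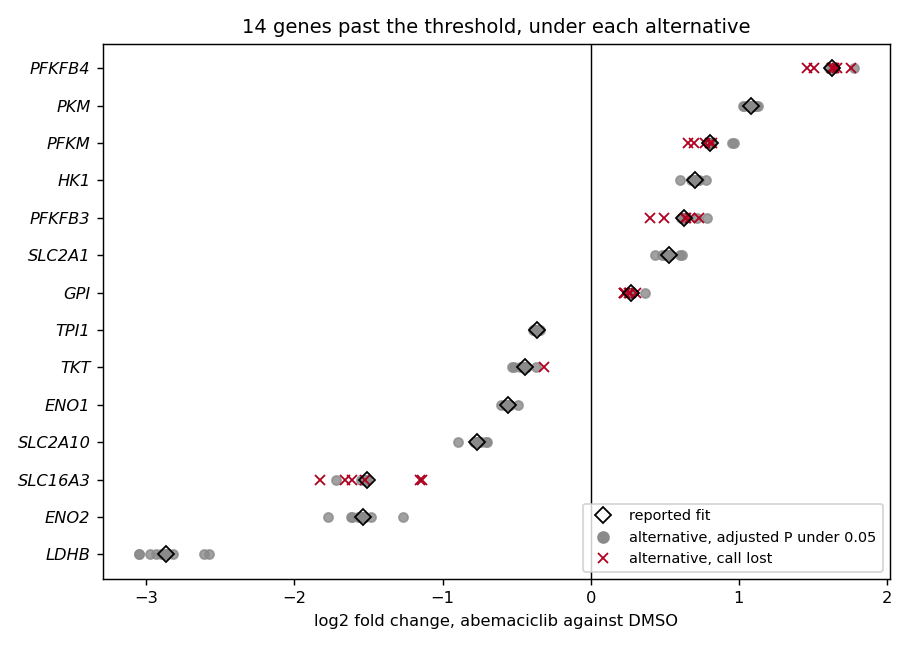
Log2 fold change (x axis) of the 14 genes past the threshold in the reported fit (diamond) and under each alternative setting (grey, call kept; red cross, call lost). Every gene keeps its direction wherever it was tested, and SLC2A1, SLC2A10, HK1, TPI1, ENO1, ENO2, PKM and LDHB have no red cross, although LDHB, SLC16A3 and PFKFB4 were not tested with at least 10 counts required in every library.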

How the data were processed

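The 6 RNA libraries, all of parental ZR-75-1 cells, were grouped by the treatment and replicate labels. The authors trimmed single-end 3′ mRNA reads with BBDuk, mapped them with STAR 2.7.5b to hg38 and made counts per gene with featureCounts 2.0.1 and a GENCODE annotation, the versions also standing in the submitters' processing notes. The deposited values are raw counts, unfiltered, with 40227 genes at 0 throughout. The strand setting is not given in the sources used here. The study's own DESeq2 tests were not used. Symbols were matched by identifier (60401 of 60656 genes), and gene positions come from a later release of GENCODE for GRCh38.

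Abemaciclib was compared with DMSO in R 4.3.3 with edgeR 4.0.16 (filterByExpr, about 2.93 CPM in at least 3 libraries, TMM, glmQLFit, glmQLFTest, two-sided, no covariate, Benjamini–Hochberg adjustment over 10863 genes, threshold 0.05). The standard error is the log2 fold change divided by the square root of F. The biological coefficient of variation was 13.2%. The test was checked on simulated counts. CPM limits cover counting error only. Every listed gene is named, of the neighbouring genes those past the threshold except 1 that is not reported here, and MKI67. The genes and lists were chosen with earlier results of these data known, and the sums over isoenzymes were added after values were seen. Alternatives were DESeq2 1.42.0, its size factors, library totals, other filters (none, or 10 counts in every library), a replicate block, and each library left out.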

Additional observations from a re-analysis of the deposited data

How the results depend on the processing

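Of 154 recomputed summary values (counts of calls, the median and shares), 136 stayed within the tolerance used (1.5 times for counts, 1 SD for values) and 18 moved. For the shares, leaving out 1 of 3 libraries cannot shift the difference by 1 SD. The replicate block leaves the isoenzyme shares unchanged by construction. These values were therefore bound to stay within the tolerance, and their part of the 136 says nothing about stability. Of 357 recomputed fold changes of single genes, 305 kept direction and side of the threshold, 33 lost the call, 5 gained one and 14 changed sign, none of them past the threshold. Genes of the group that rose numbered 7, but 4 with DESeq2, 4 with the replicate block and 3 to 7 with a library left out. Those that fell numbered 7, and 5 to 7 in all alternatives. Neighbouring genes that rose numbered 6, but 3 with the replicate block and 3 to 7 with a library left out, and those that fell numbered 2, but 1 with DESeq2, 1 with the replicate block and 1 to 3 with a library left out. The median log2 fold change of −0.055 became 0.025 with DESeq2, 0.017 without a filter and −0.126 to −0.021 with a library left out. With DESeq2 and without a filter the median covers all 35 genes, including the 5 not tested in the reported fit. Those 2 medians therefore differ from −0.055 in the genes covered as well as in the method. The difference in library share of 0.093 percentage points was 0.017 without GAPDH. PDK3 changed sign with library totals (−0.011), with at least 10 counts in every library (−0.001) and with the replicate block (−0.019), as did RPE with the block (0.013). With a library left out, PFKL ranged from −0.131 to 0.018, PFKFB2 from −0.16 to 0.353, PDK2 from −0.191 to 0.249, PDK3 from −0.219 to 0.18 and RPE from −0.214 to 0.338. The causes were not tested. Libraries with the same replicate number did not deviate together (correlations −0.043, 0.007 and −0.089), so the block removes a number only, and over all genes it gave 1139 higher and 1280 lower against 1354 and 1442. LDHB, SLC16A3 and PFKFB4 gave no value with at least 10 counts in every library, which left them out. The share of ALDOC could not be computed because both aldolases were at 0 counts in the DMSO libraries. At 3 libraries per group and these depths, genes under about 2.93 CPM were not tested.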
